A study of Mus musculus with 6 samples.

Results

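The Engrailed and Insm transcription factors form 2 pairs of related genes, En1 with En2 and Insm1 with Insm2, and these 4 genes were followed out of 49997 in the table. They were matched by gene symbol, and all 4 had a row. They were selected on their measured levels in these same 6 libraries, as genes that differ between the retinas labelled Samd7 KO and the wild-type retinas, each shown with its paralog. Their values in that comparison are therefore a description, with no test. Polyadenylated RNA of mouse retina was sequenced, with 1 retina in each of 6 libraries. In 3 libraries the genotype label was Samd7 knockout (-10A) and the age postnatal day 31. In the other 3 the genotype label was c57Bl6/j wt and the age postnatal day 36. All retinas were labelled male. Genotype and age therefore cannot be told apart. What was changed within Samd7, on which strain, and whether each retina came from its own mouse is not stated in the labels.

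Engrailed proteins are homeodomain transcription factors that mostly repress their targets, and they recruit corepressors of the Groucho (Tle) family through a short motif. Their best known role is in the embryonic midbrain and hindbrain, where they pattern the tectum and cerebellum and maintain dopamine neurons. Insm1 is a zinc finger repressor of neuroendocrine cells and newborn neurons that binds histone demethylase and deacetylase complexes through its SNAG domain, and in zebrafish an Insm1 orthologue is needed for photoreceptor differentiation. Insm2 is its close relative with a less studied function.

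Samd7, the gene named by the label, had 57837, 45755 and 44932 normalized reads in KO-labelled libraries, against 6349, 8141 and 8122 in wild type. A normalized read count is the number of reads on a gene divided by 1 scaling factor for its library, and means with SD are in this unit unless said otherwise. The targeted gene was thus 6.57-fold higher under the KO label, and gene-level counts cannot tell whether its transcript is altered. Libraries held 44.2 to 53.1 M reads under the KO label and 47.7 to 62.8 M in wild type. All 7 rod markers and all 8 cone markers on the lists were expressed in the labelled tissue. The library wild type 3 stood apart in lens markers, with a summed level of 4271 normalized reads against 106 to 151 in KO-labelled libraries and 136 and 147 in the other wild-type libraries.

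En1 lies on chromosome 1 (120602487 to 120607991, GRCm38), En2 on chromosome 5 (28165696 to 28172190), Insm1 on chromosome 2 (146221997 to 146225020) and Insm2 on chromosome 12 (55598917 to 55602018), all on the plus strand. The GENCODE transcripts of En1 and En2 have 2 exons each and those of Insm1 and Insm2 have 1. No other gene in the RefSeq annotation overlapped any of the 4. The paralogs share short identical stretches, which bears on whether a read could belong to either. The longest identical run was 17 bases between the En1 and En2 transcripts and 24 bases between those of Insm1 and Insm2. The coding stretches that hold these runs are shown with the differing bases in capitals. The Engrailed stretch covers the motif that binds Groucho corepressors.
En2: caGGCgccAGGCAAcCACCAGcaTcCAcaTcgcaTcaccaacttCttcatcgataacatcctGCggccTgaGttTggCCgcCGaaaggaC
En1: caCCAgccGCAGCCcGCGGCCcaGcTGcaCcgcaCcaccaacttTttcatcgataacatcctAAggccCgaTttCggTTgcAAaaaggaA
Insm2: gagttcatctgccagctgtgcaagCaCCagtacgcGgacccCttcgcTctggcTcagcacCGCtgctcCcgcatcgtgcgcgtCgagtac
Insm1: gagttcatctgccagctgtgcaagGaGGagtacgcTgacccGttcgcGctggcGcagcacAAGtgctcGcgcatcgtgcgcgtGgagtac
Over these 90 bases En2 and En1 differed at 31 positions, and Insm2 and Insm1 at 12. In the most alike ungapped coding window of 90 bases, 81 bases were identical in either pair.

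The start-site window of Insm2 is shown because it is a promoter of a factor that stood far apart between groups, together with that of En1, which was at 0. Of the 4 genes, these were matched in the RefSeq promoter table of GRCm38.p6, which gives 250 bases before to 50 bases after the RefSeq start. Capitals mark CG dinucleotides.
Insm2, chr12:55598667-55598966, plus strand: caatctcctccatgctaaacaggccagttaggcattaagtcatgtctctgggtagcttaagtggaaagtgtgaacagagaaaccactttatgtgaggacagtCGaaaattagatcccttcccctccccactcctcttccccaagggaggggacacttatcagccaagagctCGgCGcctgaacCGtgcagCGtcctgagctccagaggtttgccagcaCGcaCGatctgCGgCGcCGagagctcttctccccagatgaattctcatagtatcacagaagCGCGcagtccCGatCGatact
En1, chr1:120602237-120602536, plus strand: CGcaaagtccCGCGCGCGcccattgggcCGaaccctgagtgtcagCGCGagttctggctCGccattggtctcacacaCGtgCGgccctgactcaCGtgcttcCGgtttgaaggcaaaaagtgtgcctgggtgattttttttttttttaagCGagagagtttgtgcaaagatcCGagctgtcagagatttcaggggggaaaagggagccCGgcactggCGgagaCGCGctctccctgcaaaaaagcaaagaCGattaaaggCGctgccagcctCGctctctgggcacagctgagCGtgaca
The Insm2 window held 14 CG dinucleotides, more than 63.7% of 32851 promoter windows, and the En1 window held 23, more than 78.5%, with a median of 7 over all windows. The motif TAATCC, the core bound by the photoreceptor factor Crx, was found on neither strand of either window and in 7.06% of all windows. TAATTA, a homeodomain core, was in neither window and in 5.29% of all. CANNTG, the E-box, occurred at 1 place in the Insm2 window and at 3 in the En1 window, and in 72.3% of all windows. Matches are of letters only and say nothing of binding. The GENCODE transcript of Insm2 starts downstream of the RefSeq start, and which start was used cannot be read from gene counts.

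En2 was close to silent in wild type and abundant under the KO label. Its normalized read count was 6900, 5823 and 4680 in KO-labelled libraries, against 22.2, 22.7 and 48.9 in wild type. The lowest library labelled KO was still 95.6 times the highest wild-type library. The underlying reads numbered 6114, 5616 and 4863 in KO-labelled libraries and 26, 21 and 52 in wild type, so the wild-type level rests on few reads. The ratio of group means was 185 (5801 ± 1110 in KO-labelled and 31.3 ± 15.3 in wild-type libraries, SD over n = 3 each), a log2 fold change of 7.57 with a standard error of 0.26 on the log2(value + 1) scale. Without wild type 3, the library with the lens signal and the highest wild-type value, the ratio was 258. Without wild type 1 it was 162, the lowest with a single library left out. In the authors' deposited table the log2 fold change of En2 was 7.53 (standard error 0.38).

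En1 had 0 reads in each of the 6 libraries. The depth allows up to 0.0565 to 0.0678 RPM (reads scaled to the library total) in KO-labelled libraries and 0.0478 to 0.0629 in wild type, taking 3 reads as the limit of a count of 0. En2 itself was at 91.6 to 138 RPM in KO-labelled libraries and at 0.414 to 0.938 in wild type. En1 was therefore not detectable in either group, and no fold change was formed. Such limits cover counting error only, since PCR copies were not separated from molecules.

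Insm2 had the steadiest level under the KO label of the 3 detected factors. Its normalized read count was 6931, 6910 and 7391 in KO-labelled libraries, with a coefficient of variation of 3.84%, against 55.6, 36.8 and 70.6 in wild type. The wild-type level again rests on few reads, 65, 34 and 75. The groups were far apart, with the lowest library labelled KO at 97.9 times the highest wild-type library. The ratio of means was 130 (7077 ± 272 in KO-labelled and 54.3 ± 16.9 in wild-type libraries, SD over n = 3 each), and the log2 fold change was 7.05 (standard error 0.19). Without wild type 3 the ratio was 153, and without wild type 2 it was 112.

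Insm1 was expressed in both groups and differed far less. Its normalized read count was 3722, 2297 and 1698 in KO-labelled libraries, against 1117, 1083 and 999.6 in wild type. The groups did not overlap, but the libraries labelled KO spread 2.19-fold among themselves and the wild-type libraries only 1.12-fold. The ratio of means was 2.41 (2572 ± 1040 in KO-labelled and 1067 ± 60.6 in wild-type libraries, SD over n = 3 each), with a log2 fold change of 1.19 (standard error 0.21). Without the library KO 1 the ratio was 1.87, without KO 3 it was 2.82, and without wild type 3 it was 2.34.

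**Figure D1:**
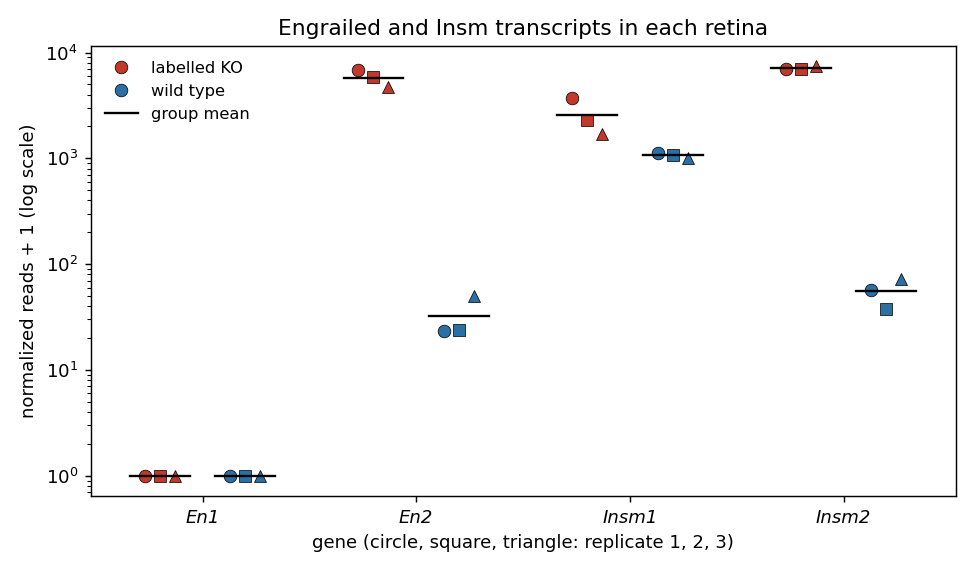
Normalized reads plus 1, on a log axis, of En1, En2, Insm1 and Insm2 in each library, with red points for the 3 retinas labelled KO, blue points for the 3 wild-type retinas and black lines for group means. En2 lies between 4680 and 6900 normalized reads under the KO label and between 22.2 and 48.9 in wild type, while En1 is at 0 throughout.

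The 3 detected factors had groups that did not overlap, all higher under the KO label, as did 15.9% of the 20277 genes with enough reads for a test. The factors were chosen for this difference, so nothing is read from that count. By the ratio of means En2 stood in place 11, Insm2 in place 15 and Insm1 in place 360 among those genes. A ratio of at least 100 was found in 15 genes, or 0.0740%. These places and this share use the values the factors were chosen on, so nothing is read from them either. In bulk tissue a higher level can come from more RNA per cell or from more cells that carry the RNA, and these cannot be told apart here.

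The Engrailed pair was represented by En2 alone, at 1639 ± 314 normalized reads per kilobase of transcript in KO-labelled libraries and 8.85 ± 4.32 in wild type (SD over n = 3 each). The Insm pair changed its make-up. Per kilobase, Insm2 stood above Insm1 in each library labelled KO, 2.17-, 3.51- and 5.07-fold. In wild type the order was the other way, with Insm1 17.2-, 25.3- and 12.2-fold above Insm2. Insm2 thus made up 76.6% ± 7.61 of the pair's per-kilobase level under the KO label and 5.63% ± 1.9 in wild type (SD over n = 3 each). The summed level of the pair was 3490 ± 274 per kilobase under the KO label and 365 ± 16.2 in wild type.

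**Figure D2:**
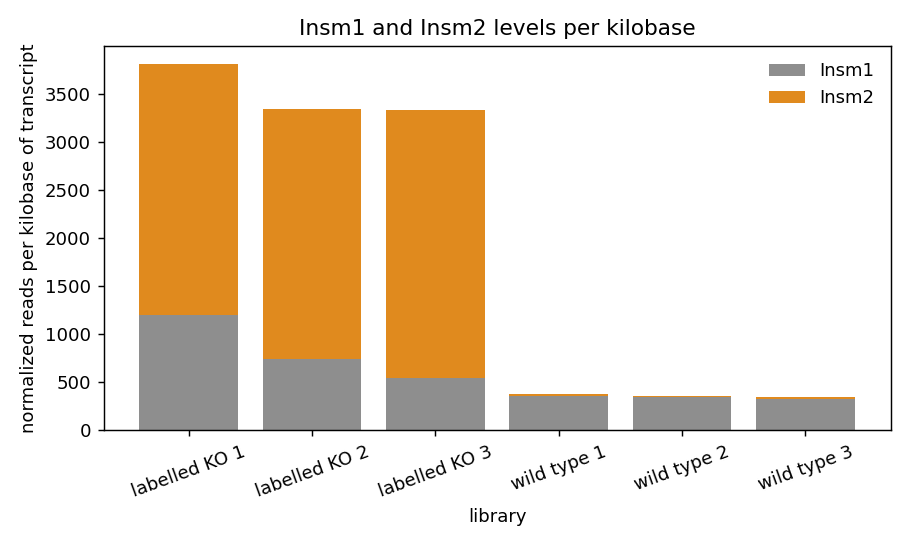
Levels of Insm1 (grey) and Insm2 (orange) as stacked bars, in normalized reads per kilobase of transcript, for the 3 libraries labelled KO and the 3 wild-type libraries. The orange part takes most of each bar under the KO label, 76.6% on average, and a thin cap in wild type, 5.63% on average.

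Ranked per kilobase against other tested genes, the detected factors also stood in different places. The factors were chosen on this difference, so the places are a description only. En2 lay above 87.4% of tested genes in KO-labelled libraries and above 6.28% in wild type. Insm2 lay above 92.5% under the KO label and above 14.2% in wild type. Insm1 lay above 76.6% under the KO label and above 59.4% in wild type. Under the KO label the order per kilobase was Insm2 (2661 ± 102), En2 (1639 ± 314), Insm1 (830 ± 335) and En1 at 0. In wild type it was Insm1 (344 ± 19.6), Insm2 (20.4 ± 6.37), En2 (8.85 ± 4.32) and En1 at 0 (SD over n = 3 each). The per-kilobase ranges of En2 and Insm1 under the KO label, 1322 to 1950 and 548 to 1201, did not overlap, while those of Insm2 and En2 in wild type, 13.8 to 26.5 and 6.29 to 13.8, met at their ends.

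Among annotated genes with a name, those whose library profile was most like each factor were found by the root mean square difference of log2(value + 1), less the wild-type mean, over the 6 libraries. Insm2 was nearest to En2 (0.48 log2 units), then came Fabp7, which binds fatty acids in brain (0.52), and Bpifb6, of the lipid-binding BPI fold family (1.41). Fabp7 was nearest to Insm2 (0.27). Fabp7 had 9665, 8280 and 8173 normalized reads in KO-labelled libraries, against 66.7, 60.6 and 63.1 in wild type. Bpifb6 had 4427, 4271 and 4433 in KO-labelled libraries, against 67.6, 97.4 and 101.7 in wild type. Both genes were low in every wild-type library and abundant in every KO-labelled one. They were matched to En2 and Insm2 on these same values, so nothing is read from the shared pattern.

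Insm1 was matched by genes with its uneven level among the retinas labelled KO. Nearest was Spry1, an inhibitor of fibroblast growth factor signalling (0.18 log2 units), then Mndal (0.20) and Rsad2, an interferon-induced antiviral protein (0.20). Spry1 had 717, 535 and 349 normalized reads in KO-labelled libraries, against 296, 197 and 213 in wild type. Mndal had 54.2, 31.1 and 21.2 in KO-labelled libraries, against 18.8, 17.3 and 14.1 in wild type. Its level rests on few reads, 100 under the KO label and 53 in wild type (limma adjusted p = 0.116). Rsad2 had 150, 111 and 87.6 in KO-labelled libraries, against 41.9, 41.1 and 44.2 in wild type. In each of these genes KO 1 was the highest library and KO 3 the lowest under that label. The genes were matched to Insm1 on these same values, so nothing is read from the shared order.

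**Figure D3:**
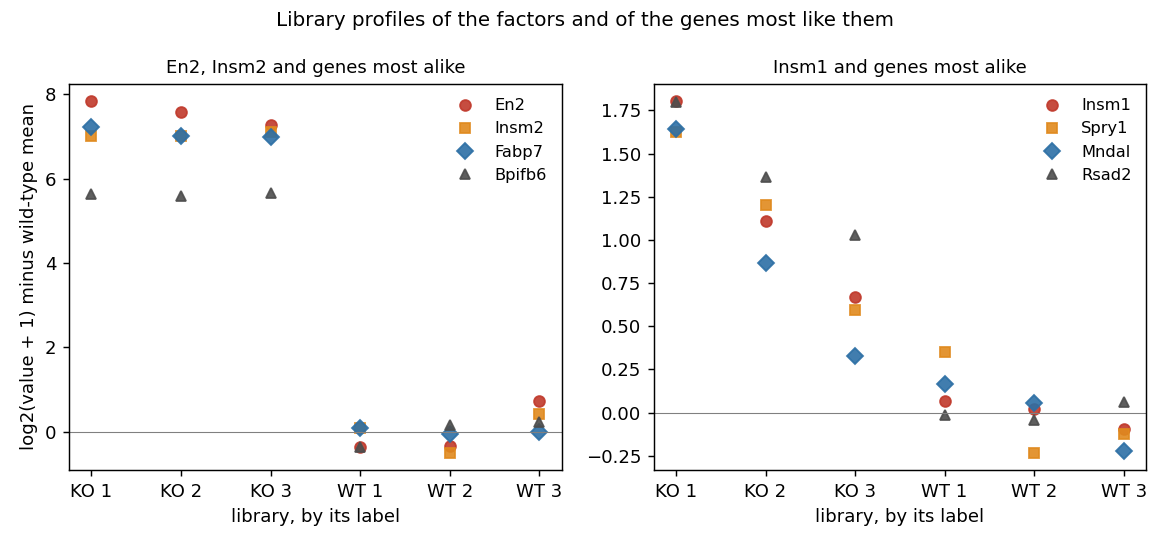
Profiles over the 6 libraries, as log2(value + 1) minus the wild-type mean, of En2 and Insm2 with the genes most like them (left) and of Insm1 with the genes most like it (right). En2, Insm2 and Fabp7 sit far above wild type in each library labelled KO, with group differences of 7.57 for En2 and 7.05 for Insm2, and Insm1 is highest in KO 1.

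The 3 nearest genes on each side of each factor were examined next. Of these 24 genes, 12 had enough reads for a test, 5 were called higher under the KO label and 0 lower, where a call means a limma adjusted p under 0.05. Over all tested genes 6.79% were called higher and 5.21% lower (2432 genes in all). The 6 neighbours of En1 were at or near 0 reads, with 0 reads under the KO label and 5 in wild type over all of them. Around En2, Insig1, a sterol sensor 87.0 kb away, had 2438 ± 304 normalized reads in KO-labelled libraries and 2493 ± 134 in wild type (SD over n = 3 each, limma adjusted p = 0.850). The noncoding gene Gm35055, 44.0 kb away, had 39 reads under the KO label and 5 in wild type (limma adjusted p = 0.0181), a call that ended without KO 3 (adjusted p = 0.0600) and without wild type 3 (adjusted p = 0.0554; range over alternatives 0.00759 to 0.0600). DESeq2 gave Gm35055 no adjusted p. Gm52808, a noncoding gene 2.83 kb past the end of En2, had 11 reads under the KO label and 0 in wild type, too few for a test.

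Around Insm2, 3 of 5 tested neighbours were called higher and 0 lower. Nfkbia, an inhibitor of NF-kappaB, lies 106 kb away and was 2.01-fold higher (9848 ± 562 in KO-labelled and 4901 ± 335 in wild-type libraries, SD over n = 3 each, limma adjusted p = 3.68e-06). Aldoart2, an aldolase gene copy 32.0 kb away, was 1.85-fold higher (limma adjusted p = 1.85e-04). Ralgapa1, a Ral GTPase activator on the opposite strand that ends 0.87 kb from the end of Insm2, was 1.35-fold higher (3919 ± 505 in KO-labelled and 2895 ± 51.9 in wild-type libraries, SD over n = 3 each, limma adjusted p = 0.0118). That call ended without KO 3 (adjusted p = 0.0521) and without wild type 3 (adjusted p = 0.0617; range over alternatives 6.88e-04 to 0.0617). The other neighbours tested did not pass. Brms1l had 2046 ± 87.6 normalized reads in KO-labelled libraries and 1702 ± 30.9 in wild type (SD over n = 3 each, limma adjusted p = 0.0544), and the noncoding Gm36634 had 29.7 ± 4.90 in KO-labelled and 14.8 ± 6.52 in wild-type libraries (limma adjusted p = 0.0976). No source used here says whether strand was used in counting, so reads between these genes cannot be assigned with certainty. Beside Insm1, Cfap61, a cilium and flagellum protein gene 6.96 kb away, was 1.45-fold higher (2530 ± 316 in KO-labelled and 1747 ± 107 in wild-type libraries, SD over n = 3 each, limma adjusted p = 0.00498), and Ralgapa2, 14.9 kb away, had 501 ± 65.2 in KO-labelled and 461 ± 41.4 in wild-type libraries (SD over n = 3 each, limma adjusted p = 0.614).

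**Figure D4:**
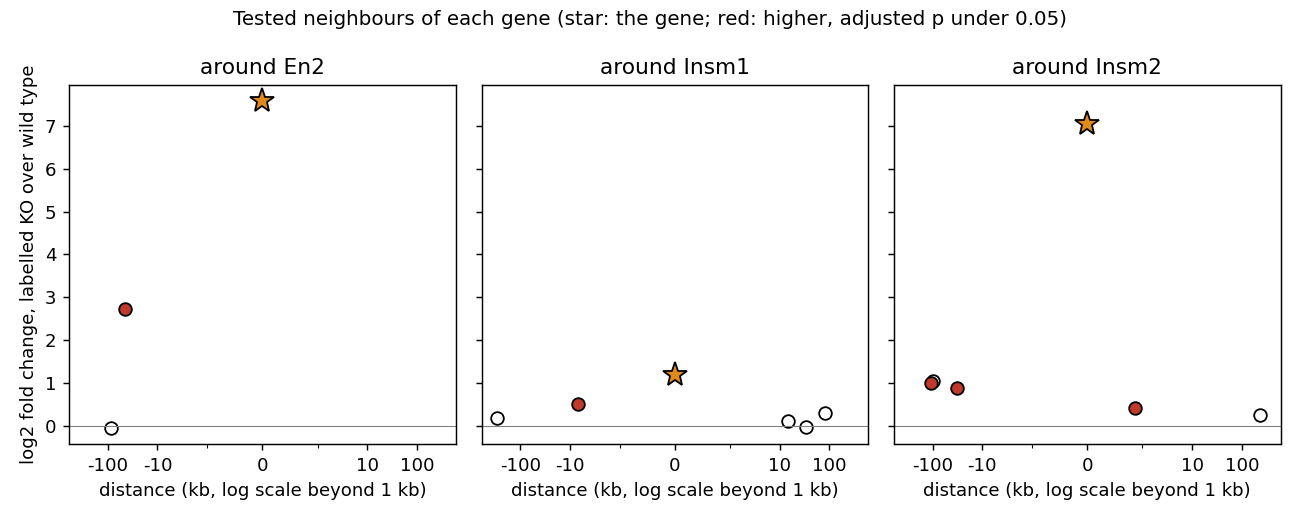
Log2 fold change, labelled KO over wild type, of En2, Insm1 and Insm2 (stars) and of their tested neighbours (circles, red where called higher) against distance in kilobases (log scale beyond 1 kb), with no neighbour of En1 tested. En2 is at 7.57 and Insm2 at 7.05, both chosen for their difference, and the highest tested neighbour is Gm35055 at 2.73.

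Partners and relatives of the factors were counted in 10 lists. Of 115 tested genes on them, 13 were called higher and 10 lower, or 20.0% together, where 6.79% and 5.21% of all tested genes were called in those directions. The largest rise on the lists was 3.94-fold. It belonged to Tle1, a Groucho corepressor that Engrailed proteins recruit. It had 7060, 7185 and 7313 normalized reads in KO-labelled libraries, against 1955, 1784 and 1736 in wild type, with no overlap (log2 fold change 1.98, SE 0.08, limma adjusted p = 7.95e-09).

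Among 13 tested Engrailed cofactors, 2 were called higher and 2 lower, with a median log2 fold change of -0.05 against 0.00178 over all tested genes. Besides Tle1, its relative Tle4 was 1.46-fold higher (2524 ± 228 in KO-labelled and 1734 ± 153 in wild-type libraries, SD over n = 3 each, limma adjusted p = 0.00321). Tle5, a short family member that lacks the repeat domain of the others, was 1.20-fold lower (limma adjusted p = 0.0148). Its call ended with no filter on low values (adjusted p = 0.0534), without wild type 2 (adjusted p = 0.0551) and without wild type 3 (adjusted p = 0.0842; range over alternatives 0.0113 to 0.0842). Tle2, Tle3 and Tle6 did not pass.

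Genes of the midbrain-hindbrain boundary, the region where En1 and En2 act in the embryo, were counted next. Of 21, 9 were below the level for a test, among them Fgf8, Wnt1 and Pax5, with 41 reads under the KO label and 83 in wild type over all 9. Cnpy1 was one of them, with 1.04 to 3.85 normalized reads in KO-labelled libraries and 1.08 to 10.3 in wild type. Of 12 tested, 2 were called higher and 1 lower, with a median log2 fold change of 0.12. Etv5, a transcription factor induced by fibroblast growth factors, was 1.52-fold higher (limma adjusted p = 0.00162), and Spry1 was 2.27-fold higher (limma adjusted p = 0.00748). Spry2, another inhibitor of that signal, was 1.51-fold lower (561 ± 96.6 in KO-labelled and 844 ± 125 in wild-type libraries, SD over n = 3 each, limma adjusted p = 0.0206). The Spry2 call ended when any of KO 2, KO 3, wild type 2 and wild type 3 was left out (adjusted p 0.0591, 0.0934, 0.0973 and 0.100; range over alternatives 0.00124 to 0.100).

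Genes of midbrain dopamine neurons, which need Engrailed for survival, had 6 tested members, 0 higher and 2 lower by limma, with 0 higher also at an unadjusted p under 0.05 and 2 called by edgeR and by DESeq2. Another 5, Pitx3, Lmx1a, Foxa1, Foxa2 and Slc6a3, were below the level for a test. Together they had 29 reads under the KO label and 60 in wild type. Th, which makes the dopamine precursor, was 1.48-fold lower (414 ± 53.2 in KO-labelled and 613 ± 13.1 in wild-type libraries, SD over n = 3 each, limma adjusted p = 0.00894). Drd2, a dopamine receptor, was 1.23-fold lower (limma adjusted p = 0.0327), a call that ended without KO 3 or any of the wild-type libraries and with scaling to equal total reads (adjusted p = 0.0721; range over alternatives 0.0113 to 0.133). Ephrins and Eph receptors, guidance molecules whose tectal gradients depend on Engrailed, had 4 of 22 higher and 1 lower, with a median log2 fold change of 0.03. Ephb2 was 1.48-fold higher (2160 ± 120 in KO-labelled and 1461 ± 140 in wild-type libraries, SD over n = 3 each, limma adjusted p = 0.00197). Efnb2 and Epha8 were 1.38- and 1.34-fold higher (limma adjusted p = 0.0102 and 0.0147), and Efna3 was 1.39-fold lower (limma adjusted p = 0.0115). The Efnb2 call ended without KO 3 (adjusted p = 0.0604) and wild type 2 (0.0518; range over alternatives 5.07e-04 to 0.0604), the Epha8 call without KO 3 (0.0766), wild type 2 (0.0738) and wild type 3 (0.0842; range 0.00175 to 0.0842), and the Efna3 call without wild type 3 (0.0556; range 6.00e-04 to 0.0556).

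Other homeobox genes related to Engrailed were mostly low. Of 47, 35 were below the level for a test and 15 of those had 0 reads in all libraries. The 35 together had 102 reads under the KO label and 93 in wild type, and the highest single value was 18.1 normalized reads, of Dlx2 in a library labelled KO. Of 12 tested, 0 were called higher by limma, 1 at an unadjusted p under 0.05, and edgeR and DESeq2 each called 1 gene in all. Vax2, a factor of the ventral retina, was called lower, 1.32-fold (4420 ± 207 in KO-labelled and 5831 ± 182 in wild-type libraries, SD over n = 3 each, limma adjusted p = 0.00307).

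For the Insm pair, relatives and partners were counted in the same way. Of 10 other zinc finger genes with a SNAG domain, such as Gfi1, Snai1 and Scrt1, 6 were tested and 0 called by limma, edgeR or DESeq2, with 1 lower at an unadjusted p under 0.05. Of 14 corepressors that SNAG domains recruit, 1 was called higher and 0 lower by limma, with 0 lower also at an unadjusted p under 0.05 and 1 gene called by edgeR and by DESeq2. That gene was Rcor1, a scaffold of the histone demethylase complex, 1.26-fold higher (limma adjusted p = 0.0469), and this call was lost with no filter on low values (adjusted p = 0.0514) and when any library other than wild type 1 was left out (range over alternatives 0.0187 to 0.210). Of 7 tested proneural factors 0 were called by limma or edgeR, 1 was lower at an unadjusted p under 0.05, and DESeq2 called 1, Neurod2. Of 7 tested factors of endocrine differentiation 1 was called higher and 0 lower by limma, with 1 lower at an unadjusted p under 0.05 and 1 called by edgeR and by DESeq2. It was Neurod1, a photoreceptor and endocrine factor, 1.21-fold higher (27160 ± 523 in KO-labelled and 22389 ± 715 in wild-type libraries, SD over n = 3 each, limma adjusted p = 0.00849). That call ended without wild type 3 (adjusted p = 0.0611; range over alternatives 0.00263 to 0.0611).

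Secretory granule genes, a known program of Insm1 in endocrine cells, had 3 of 16 higher and 3 lower, with a median log2 fold change of 7.62e-04. Ptprn2, a granule membrane protein, was 1.64-fold higher (1762 ± 13.5 in KO-labelled and 1074 ± 32.2 in wild-type libraries, SD over n = 3 each, limma adjusted p = 1.31e-04). Scg3 and Chgb, both granins, were 1.47- and 1.23-fold higher (limma adjusted p = 3.37e-04 and 0.00670). Vgf, a secreted neuropeptide precursor, was 1.5-fold lower (3113 ± 267 in KO-labelled and 4681 ± 19.5 in wild-type libraries, SD over n = 3 each, limma adjusted p = 4.68e-04).

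**Figure D5:**
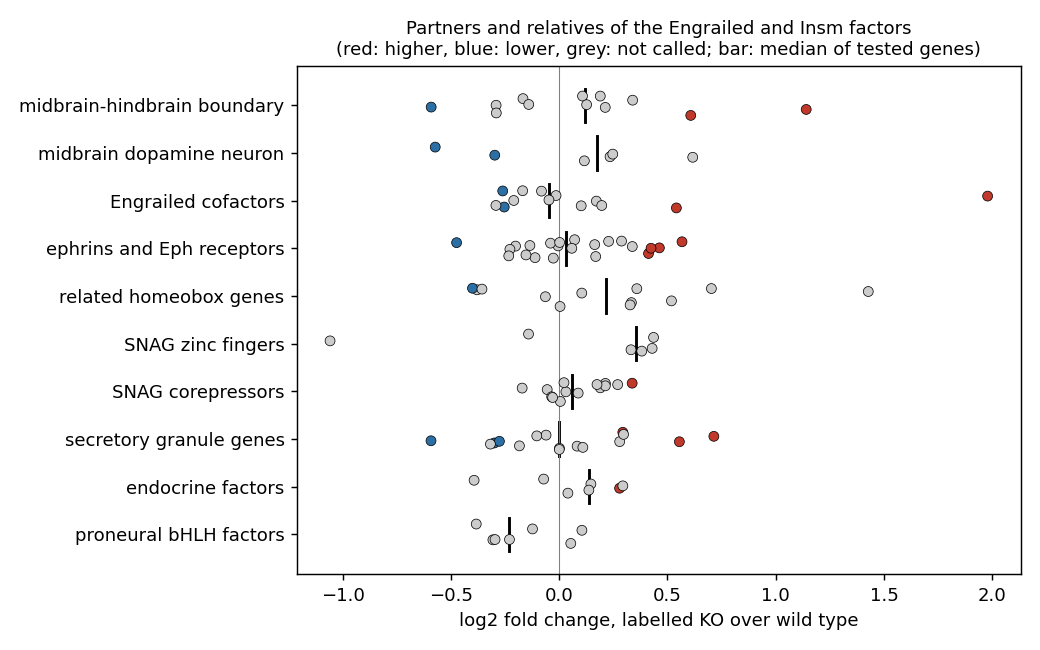
Log2 fold change, labelled KO over wild type, of each tested gene on the 10 lists of partners and relatives (points, red where called higher, blue where called lower, grey otherwise), with the median of each list as a bar. The highest point is Tle1 at 1.98.

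Markers of other cells known to carry these factors were also measured. Cerebellar granule cells, which express En2 in the brain, had 7 markers with summed levels of 586 to 692 normalized reads in KO-labelled libraries and 604 to 682 in wild type. Of 5 tested, 0 were called by limma, edgeR or DESeq2, with 1 higher at an unadjusted p under 0.05. Gabra6, a defining marker of those cells, was at 0 in KO-labelled libraries and had 1.08 normalized reads in wild type 2. Markers of retinal progenitors, which express Insm1 in the embryo, summed to 3605 to 3656 normalized reads in KO-labelled libraries and 3600 to 3958 in wild type. Sox2, Hes5 and Dll1 had the largest values in both groups. Mki67, Top2a and Fgf15 were near 0 and not tested, with 8, 2 and 10 reads under the KO label and 2, 8 and 7 in wild type. Of 7 tested, 0 were called by limma or edgeR and 1, Hes5, by DESeq2, with 1 lower at an unadjusted p under 0.05.

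Markers of several other cell types moved with the labels. Of 7 microglia markers all 7 were called higher, with summed levels of 5031 to 5645 normalized reads in KO-labelled libraries and 3139 to 3563 in wild type. All 5 red blood cell markers were called higher (5661 to 8293 in KO-labelled and 1467 to 2232 in wild-type libraries), and 6 of 8 pigment epithelium markers were called lower (1703 to 2945 in KO-labelled and 4351 to 6855 in wild-type libraries). Of 8 cone markers 3 were called higher and 1 lower (521459 to 538492 in KO-labelled and 130884 to 134421 in wild-type libraries), and 5 of 7 rod markers were called lower (2835500 to 3105790 in KO-labelled and 4427840 to 4820120 in wild-type libraries). Under the KO label most of the cone sum was Opn1sw, with a mean of 416374 normalized reads against 43705 in wild type. Gngt2 and Cnga3 were the other cone markers called higher, and Opn1mw was the one called lower. Arr3, Gnat2, Pde6h and Pde6c were not called by limma. Of the 8 cone markers edgeR called 4 and DESeq2 5, and 6 had an unadjusted p under 0.05. Of the 7 rod markers edgeR called 6 and DESeq2 4. Of the 8 pigment epithelium markers edgeR called 6 and DESeq2 5. Of 6 Müller glia markers 2 were called higher and 1 lower (198535 to 225061 in KO-labelled and 201096 to 224631 in wild-type libraries). Of 6 ganglion cell markers 1, Nefh, was called higher (20521 to 20746 in KO-labelled and 19075 to 20439 in wild-type libraries). Of 7 bipolar, 6 amacrine and 4 horizontal cell markers and 2 tested lens markers, 0 were called by limma, edgeR or DESeq2, while 4, 1, 1 and 1 of them had an unadjusted p under 0.05. The part of these shifts in the levels of the 3 detected factors was not tested.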

How the data were processed

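The deposited table held, per the file headers, 1 row per gene and 1 column per library. Its signal values are the authors' gene read counts divided by 1 DESeq2 size factor per library. It also holds log2 fold changes with their errors, a Wald score, p-values and adjusted p-values, deposited by the authors. The submitters' processing notes name STAR 2.7.3a, HTSeq 0.12.4, DRAGEN, cutadapt 3.0, SAMtools 1.9 and DESeq2, and the builds GRCm38 and mm10, with no roles or settings. Whole reads were recovered by dividing each library by the value of 1 read: all 166478 values above 0 were whole within 0.01 reads (100%).

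The 20277 genes that reached 10 normalized reads in 3 or more libraries were fitted with limma-trend 3.58.1 (R 4.3.3) on log2(value + 1), a scale that understates changes of low genes. Tests were two-sided, and Benjamini-Hochberg adjustment ran over all tested genes. edgeR 4.0.16 called 2494 genes and DESeq2 1.42.0 called 2883 on the recovered reads, against 2432 with limma. Since separate mice are not stated, p-values cover only the spread among these retinas, which may be technical. No 2 replicates were duplicates: chi-square over degrees of freedom was 6.78 to 33.0 for pairs within a group. The test was also run on simulated counts with an assumed spread between libraries, so that run does not vouch for the calls given here.

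The genes followed, the gene lists and the rules were chosen with earlier results of these data known. Named were the 4 factors, the 3 genes most like each, the 3 nearest genes on each side, up to 4 called genes of each list by smallest adjusted p, and Samd7. The result of 1 gene that this rule names is not reported here. Predicted genes were left out of the search for like genes. Per-kilobase levels used the longest GENCODE vM21 transcript; 18216 tested genes had one. All 49997 symbols matched the RefSeq gene table of GRCm38.p6, the source of gene positions and promoters. Promoters of En2 and Insm1 are not shown.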

Additional observations from a re-analysis of the deposited data

How the results depend on the processing

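The log2 fold changes of En2, Insm1 and Insm2 were recomputed under 13 alternatives and kept their direction. Their groups did not overlap, so the direction could not turn with a single library left out. The filter changes and the replicate block returned the same values as the main fit. Nothing is therefore read from the kept direction. Leaving out single libraries gave the widest range: 7.38 to 7.93 for En2, 0.89 to 1.46 for Insm1 and 6.80 to 7.26 for Insm2. Under the alternatives that kept all libraries the log2 fold changes moved by less than the spread between libraries. With a single library left out, a shift below that spread is fixed by arithmetic, so nothing is read from it. En1 had no value to recompute. With the RefSeq length in place of the GENCODE transcript, an alternative chosen after seeing the data, the per-kilobase ratio of Insm2 to Insm1 was 3.0 in place of 3.58 under the KO label and 0.0502 in place of 0.0600 in wild type. The count of changed genes, 2432, was 1313 to 3247 with single libraries left out, reaching 1497 when KO 3 was dropped, 1470 for wild type 2 and 1313 for wild type 3; the cause was not tested. At an adjusted p under 0.01 it was 1189, from the stricter threshold. Scaling to equal total reads gave 2813 genes, 71.2% of them higher, against 56.6% before. Replicate numbers do not pair the libraries: deviations of same-numbered libraries correlated at -0.182, -0.133 and -0.014, and a replicate block gave 1624 genes and ended calls that included Drd2, Rcor1, Spry2 and Tle5. Of 130 recomputed counts of called genes on the lists, 104 stayed within 1.5 times. Depth limits En1 and the wild-type levels of En2 and Insm2, which rest on 21 to 52 and on 34 to 75 reads.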
